A study of Homo sapiens with 4 samples.

Results

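The genes examined were 46 heat shock and chaperone genes, mainly of the cytosol and mitochondria, in SUM159 cells, a claudin-low, triple-negative human breast cancer cell line. The genes were taken from a list by name, and a gene counted as measured through the probe sets annotated to it alone. The list was chosen with earlier results of these data known. Shares of its genes set beside those of all genes below are therefore descriptions, and no enrichment of the list was tested. Of 54675 probe sets on the array, 88 were annotated to a listed gene alone, and they covered 39 of the 46 genes. Of these 39 genes, 37 reached a log2 level of 6, taken here as the limit of a measured level, in at least 1 array. HSPA1L and HSPB6 stayed under that level in all arrays. HSPA1A, HSPA1B, HSPA8 and TCP1 lay only on probe sets annotated to several genes and are given no value, and AHSA1, HSPB11 and HSF2 had no listed probe set.

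Every group, controls included, was made of pTRIPZ-SUM159-mir-100 cells, in which doxycycline switches on expression of the microRNA miR-100. Flow sorting split them into ALDH+ and ALDH- cells, the fractions with high and low aldehyde dehydrogenase activity, which the study treats as breast cancer stem cells and the remaining cells. Each fraction was kept in suspension with DOX, to induce miR-100, or without it (control), and the 4 groups of total RNA were hybridised to 1 Affymetrix array each. The question put by the study was which cellular targets miR-100 has in each fraction. The labels give 10 h of culture in the source names and 13 h in the descriptions, and the descriptions name Doxorubicin where the titles and the protocol name doxycycline. DOX-treated cells without the construct were not analysed here, so an effect of DOX itself and of miR-100 cannot be told apart.

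Chaperones bind unfolded or partly folded proteins and keep them from aggregating. HSP70 proteins work with J-domain proteins, which bring substrates and trigger ATP hydrolysis, and with nucleotide exchange factors of the HSP110 and BAG families. HSP90 takes over partly folded clients such as kinases and steroid receptors from HSP70 through cochaperones. Chaperonins enclose their clients in a barrel, HSPD1 with HSPE1 in mitochondria and the CCT complex in the cytosol. Many of these genes are induced together by heat shock factor 1 (HSF1), which binds heat shock elements, alternating GAA and TTC units set a pair of bases apart. Breast cancer cells are known to lean on HSP90 and HSP70 for the folding of many oncogenic proteins.

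The heat shock element is what many of the genes share in their DNA. RefSeq promoter windows (build GRCh38.p14, 250 bases before to 50 after an annotated start) were at hand for 41 of the 46 genes. Both strands were searched for 3 units in a row, GAANNTTCNNGAA or TTCNNGAANNTTC, and for 2 units, GAANNTTC or TTCNNGAA, which lie within every 3-unit match. The 3-unit motif was found in 8 of 41 genes (19.5%) and in 166 of all 27305 genes with a window (0.608%). The 2-unit motif was found in 23 of 41 (56.1%) and in 4417 of all genes (16.2%). Of 22 chaperones of the endoplasmic reticulum with a window, none held the 3-unit motif and 2 (9.09%) the shorter motif. Median GC content of the windows was 63.7% for the listed genes, 72.0% for the endoplasmic reticulum chaperones and 58.3% for all genes. The genes with a 3-unit match were HSPA8, HSP90AA1, HSP90AB1, CHORDC1, DNAJA1, DNAJB6, HSPD1 and SERPINH1. A match describes the letters and is no evidence that a factor binds there. The stretches below show the match in 5 of these genes, of which the first 2 passed the test between ALDH fractions and the other 3 did not. Each is written 5′ to 3′ on the strand of the gene with the GAA and TTC units of the matches in capitals.

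HSP90AA1: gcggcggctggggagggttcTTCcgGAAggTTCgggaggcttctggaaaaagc
CHORDC1: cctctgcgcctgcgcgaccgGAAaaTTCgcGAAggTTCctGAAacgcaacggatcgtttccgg
HSP90AB1: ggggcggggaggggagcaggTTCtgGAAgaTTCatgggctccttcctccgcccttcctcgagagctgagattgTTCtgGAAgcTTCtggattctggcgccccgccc
DNAJB6: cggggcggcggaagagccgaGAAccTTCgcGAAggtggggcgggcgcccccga
SERPINH1: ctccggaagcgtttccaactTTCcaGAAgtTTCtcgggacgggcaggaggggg

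The HSP90AA1 stretch lies at chr14:102087100-102087152 on the minus strand, and its match begins at position -88, where -1 is the last base before the start. The CHORDC1 stretch lies at chr11:90223067-90223129 on the minus strand and holds 3 overlapping matches between positions -60 and -50, which form an unbroken run of alternating units. The HSP90AB1 stretch lies at chr6:44247758-44247863 on the plus strand and holds separate matches at -165 and -112. The DNAJB6 stretch lies at chr7:157336853-157336905 on the plus strand with its match at -131. The SERPINH1 stretch lies at chr11:75562157-75562209 on the plus strand with its match at -76.

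The 4 arrays had nearly equal medians (6.18 to 6.22) and between 11601 and 11935 genes at the level of 6. With so few arrays precision is limited by their number, and the labels name no separate cultures. Since each group had 1 array, p-values of the model below rest on how far the DOX difference departs between fractions, moderated over all genes. That departure takes in technical spread and any DOX response that differs between fractions. It does not measure a spread between repeated arrays or cultures. The ALDH- control and ALDH- DOX arrays correlated at 0.996 over all probe sets, and the other pairs at 0.970 to 0.983, with the ALDH+ DOX array lowest against the ALDH- arrays. All 6 markers of claudin-low cells were measured, with mean levels of 11.96 in both ALDH+ arrays and 12.30 and 12.32 in the ALDH- control and DOX arrays. Of these, 3 were lower in ALDH+ cells by the test used below (S100A4 by a term of -1.09, SNAI2 by -0.70 and CD44 by -0.33), and ESR1, PGR, EPCAM and CDH1 stayed under 6. KRT8, KRT18 and ERBB2, fixed as low in this line, were measured at 9.22 to 12.5. CLDN3, also fixed as low, was just above the level of 6 in all arrays, at 6.03 to 6.22. The erythroid marker HBB was at 6.98 and 6.44 in ALDH+ and at 5.77 and 5.62 in ALDH- cells, with a term of 1.02, while ALAS2 stayed under 6. None of 4 immune markers reached 6, and 2 of 4 endothelial markers did, PECAM1 (5.96 and 7.56 in ALDH+, 9.77 and 9.62 in ALDH-) and KDR (8.21 and 7.53 against 5.13 and 4.77). Over all 4 endothelial markers, the mean level was 5.96 and 6.14 in the ALDH+ control and DOX arrays and 6.20 and 5.97 in the ALDH- arrays. The 3′ minus 5′ difference of the GAPDH control probe sets, a sign of RNA quality, was 0.56 and 0.33 in ALDH+ cells and 0.87 and 0.98 in ALDH- cells. That of ACTB was 3.11 and 3.50 against 3.70 and 3.87, and the part of these and of the markers in the ALDH differences was not tested.

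The first comparison was that of the ALDH fractions. In an additive model over all 4 arrays (limma, terms for ALDH fraction and DOX, Benjamini-Hochberg adjusted p under 0.05 over 12365 genes), 12 of the 37 measured genes were lower in ALDH+ cells, 32.4%, where 9.58% of all genes were. HSPA13 alone was higher, 2.70% of the 37, where 13.5% of all genes were, and 24 did not pass. The genes that were lower included the HSP110 family's HSPH1, the HSP90 gene HSP90AA1, its cochaperones STIP1 and CHORDC1, and the chaperonin subunits HSPE1, CCT2 and CCT5. Their fitted levels were 1.25-fold to 2.60-fold lower. HSPA2 passed the filter on level through the ALDH- arrays alone, and of the 36 genes at the level of 6 in both fractions 11 were lower (30.6%, against 9.56% of all such genes). The median of the ALDH term was -0.28 over the 37 genes and 0.03 over all genes, and the term was below 0 for 27 of 37 genes and for 47.6% of all genes. Both ALDH+ arrays lay below both ALDH- arrays for 20 of 37 genes (54.1%, against 30.2% of all genes) and above them for 8 (21.6%, against 35.6%). For the remaining 9 genes the fractions overlapped. In RNA of whole fractions, fewer cells of a type and less RNA per cell cannot be told apart.

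**Figure D1:**
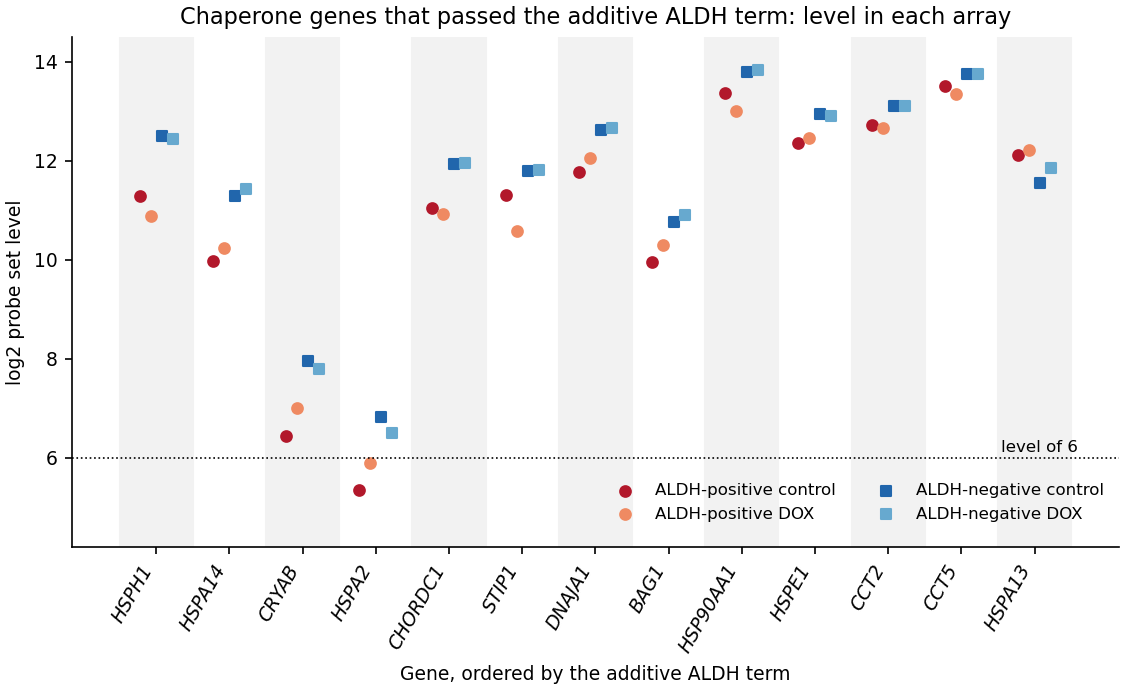
Log2 level (vertical axis) of the 13 chaperone genes that passed the additive ALDH term, as the brightest probe set of each gene in each of the 4 arrays. Genes are ordered by the ALDH term, the dotted line marks the level of 6, and heights can be compared within a gene only. The ALDH+ arrays (circles) lie below the ALDH- arrays (squares) for all genes except HSPA13.

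The fit has 1 residual degree of freedom, and without the trend of variance on level 4 of the 12 genes stayed lower (CHORDC1, CRYAB, HSPA14 and HSPH1), against 4.28% of all genes, and HSPA13 did not pass. With a single ALDH term and 1 array left out, the spread comes from the other fraction's arrays alone, and the number lower was 21 without the ALDH+ control (25.1% of all genes), 19 without the ALDH+ DOX array (24.8%), 4 without the ALDH- control (1.71%) and 2 without the ALDH- DOX array (1.42%).

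The difference can be read in each pair of arrays by size alone. In the control arrays, 4 of 37 genes were 2-fold or more lower in ALDH+ cells (HSPA14, HSPH1, CRYAB and, from a level under 6, HSPA2), against 4.4% of all genes, and none was 2-fold higher, against 6.09%. In the DOX arrays 4 were 2-fold lower (HSPA14, HSPH1, STIP1 and CHORDC1), against 5.32% of all genes, and none higher, against 11.4%. HSPA14 and HSPH1 were on both lists. The median difference was -0.33 in the controls and -0.32 with DOX, where that of all genes was 0.00 and 0.08. The pairs share no array. Differences of the 37 genes ran from -1.52 to 0.55 in the controls and from -1.56 to 0.59 with DOX. They were below 0 for 26 of 37 genes in the controls, against 50.4% of all genes, and for 25 with DOX, against 44.3%. Differences were below 0 in both pairs for 22 genes, above 0 in both for 8 and opposite for 7, counts that were not made over all genes. Across the 37 genes, which are not independent replicates, the pairs correlated at a Pearson r of 0.64 and a Spearman rho of 0.59, and across all genes at a Pearson r of 0.74.

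**Figure D2:**
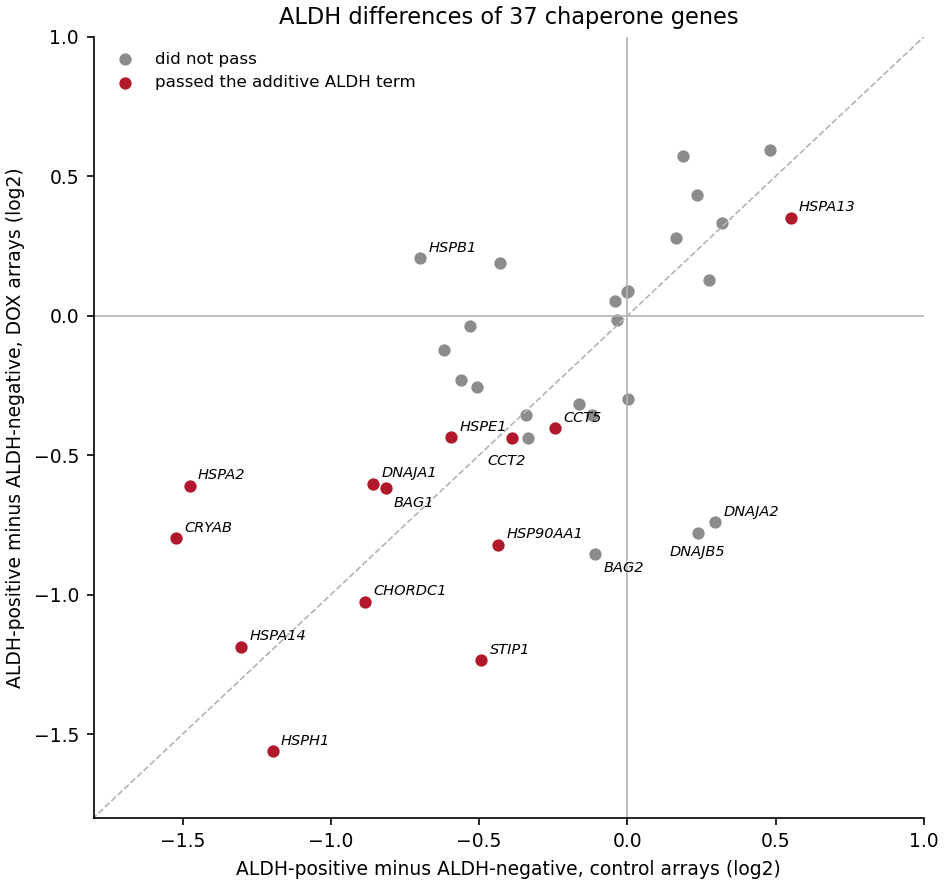
Difference between ALDH+ and ALDH- cells in log2 units for each of 37 chaperone genes, in the control arrays (horizontal axis) and in the DOX arrays (vertical axis), with the dashed line marking equal differences. Genes that passed the additive ALDH term are in red, 12 of them in the lower left and HSPA13 in the upper right, and DNAJA2, DNAJB5 and HSPB1 lie on opposite sides of 0 in the 2 pairs.

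In the HSP70 family, HSPA14 was lower, as was HSPA2 from a level under 6, HSPA13 was higher, and HSPA9 did not pass. HSPA14, an HSP70 relative that works at the ribosome with the J-domain protein DNAJC2, had log2 levels of 9.98 and 10.23 in the ALDH+ control and DOX arrays and of 11.28 and 11.42 in the ALDH- arrays. Its fractions were apart by more than 1 log2 unit in both pairs, with a term of -1.24 ± 0.20 (SE, limma adjusted p = 0.00105), 2.37-fold lower in ALDH+ cells. Of its other probe sets, one differed by -0.70 and -0.82 in the control and DOX pairs and the other by -0.29 and 0.14. HSPA2, an HSP70 best known from male germ cells, was at 5.34 and 5.89 in the ALDH+ arrays, both under the level of 6, and at 6.82 and 6.50 in the ALDH- arrays. Its term was -1.04 ± 0.31 (SE, limma adjusted p = 0.0278), a size that is uncertain since ALDH+ cells were at background, and it was -0.66 with levels under 6 set to 6. HSPA13, a microsomal HSP70-like ATPase, was at 12.10 and 12.21 in ALDH+ cells and at 11.55 and 11.86 in ALDH- cells. These brightest values do not overlap and gave a term of 0.45 ± 0.14 (SE, limma adjusted p = 0.0338). Its other probe set differed by 0.89 in the controls and by -0.37 with DOX. HSPA9, the mitochondrial HSP70, differed by 0.28 and 0.13 (limma adjusted p = 0.129).

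HSPH1, the heat-inducible HSP110 protein that exchanges nucleotides on HSP70, had the largest term of the 37 genes. It was at 11.29 and 10.88 in the ALDH+ control and DOX arrays and at 12.49 and 12.44 in the ALDH- arrays. Both ALDH+ values lay more than 1 log2 unit below both ALDH- values, with a term of -1.38 ± 0.15 (SE, limma adjusted p = 7.56e-05), 2.60-fold lower. All 3 probe sets of HSPH1 went the same way, the second by -0.91 and -1.42 and the dimmest by -2.11 and -1.71. HSPA4 and HSPA4L, the other HSP110 proteins, did not pass. The brightest HSPA4 probe set differed by 0.00 and 0.09 (limma adjusted p = 0.827), and the next brightest by 0.03 and -0.12. A dimmer probe set of the gene differed by -0.28 and -1.43, and another by -1.15 and -1.29. HSPA4L differed by -0.53 and -0.04 (limma adjusted p = 0.496).

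HSP90AA1, the stress-inducible cytosolic HSP90, was at 13.36 and 13.00 in the ALDH+ arrays and at 13.80 and 13.82 in the ALDH- arrays. Its fractions did not overlap, and its term was -0.63 ± 0.09 (SE, limma adjusted p = 0.00034), 1.55-fold lower in ALDH+ cells. The 4 probe sets of HSP90AA1 differed by -0.40 to -0.62 in the controls and by -0.57 to -0.82 with DOX. HSP90AB1, the constitutive cytosolic HSP90, stood at 13.36 and 13.44 in ALDH+ cells and at 13.40 and 13.38 in ALDH- cells. Its fractions overlapped, and the term was 0.01 ± 0.07 (SE, limma adjusted p = 0.97). TRAP1, the mitochondrial HSP90, differed by 0.32 and 0.33 and did not pass (limma adjusted p = 0.104). Both cytosolic genes carry a 3-unit match in the stretches printed above, and whether their terms differ was not tested.

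Of the 3 measured HSP90 cochaperones, 2 were lower in ALDH+ cells. STIP1, which bridges HSP70 and HSP90, was at 11.31 in the ALDH+ control, 10.57 in the ALDH+ DOX array and 11.80 and 11.81 in the ALDH- arrays. The ALDH+ DOX array was the lowest and the fractions did not overlap, and the term was -0.86 ± 0.20 (SE, limma adjusted p = 0.00774), 1.82-fold lower. The other STIP1 probe set differed by -0.66 in the controls and by -0.68 with DOX. CHORDC1, an HSP90-binding cochaperone with the longest run of heat shock units printed above, was at 11.05 and 10.93 in ALDH+ cells and at 11.93 and 11.95 in ALDH- cells. The fractions were clearly apart, with a term of -0.95 ± 0.16 (SE, limma adjusted p = 0.00145), 1.94-fold lower. A dimmer CHORDC1 probe set differed by -0.42 and -0.26, and with only this probe set, since the brighter is of a type that can pick up related transcripts, the term was -0.34 (limma adjusted p = 0.426). FKBP4, the immunophilin that escorts steroid receptors on HSP90, was nearest to the threshold on the other side, at 11.73 and 11.89 against 12.24 and 12.14. Its fractions did not overlap, and its term was -0.38 ± 0.14 (SE, limma adjusted p = 0.0614). A pair of dim FKBP4 probe sets, under 6 in ALDH+ cells, differed by -1.84 and -1.65 and by -1.62 and -1.38, and a brighter one by -0.13 and 0.31.

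Of the 10 J-domain proteins, DNAJA1 alone passed. DNAJA1, a cytosolic partner of HSP70, was at 11.77 and 12.05 in ALDH+ cells and at 12.62 and 12.65 in ALDH- cells. The fractions did not overlap, and the term was -0.73 ± 0.12 (SE, limma adjusted p = 0.0014), 1.66-fold lower in ALDH+ cells. The other DNAJA1 probe set gave the larger differences of -1.76 and -1.08. DNAJB1, the heat-inducible partner of HSP70, was at 11.60 and 11.54 against 11.95 and 11.89, without overlap, and did not pass (term -0.35 ± 0.15 (SE), limma adjusted p = 0.103). The terms of the other 8 J-domain genes lay between -0.39 for DNAJB6 and 0.54 for DNAJB2. DNAJC2, the ribosomal partner of HSPA14, had a term of 0.38 ± 0.16 (SE, limma adjusted p = 0.101).

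Among the BAG cochaperones, which release nucleotide and substrate from HSP70, BAG1 passed and BAG2, BAG3 and BAG5 did not. BAG1 was at 9.95 and 10.29 in ALDH+ cells and at 10.77 and 10.91 in ALDH- cells. The fractions did not overlap, and the term was -0.72 ± 0.21 (SE, limma adjusted p = 0.0298), 1.64-fold lower. The 3 BAG1 probe sets all differed downward, the dimmest by -2.02 and -1.36. BAG3, an HSF1 target with a role in autophagy, differed by -0.33 and -0.44 (limma adjusted p = 0.163).

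Of 3 small heat shock proteins measured, which hold unfolded proteins without ATP, CRYAB passed. CRYAB, also called alpha-B-crystallin, was at 6.43 and 6.996 in ALDH+ cells and at 7.95 and 7.79 in ALDH- cells, without overlap. Its term was -1.16 ± 0.30 (SE, limma adjusted p = 0.0144), 2.23-fold lower in ALDH+ cells. HSPB1, also called HSP27, was at 11.71 in the ALDH+ control, 12.61 in the ALDH+ DOX array and 12.41 in both ALDH- arrays. The ALDH- values lay between the ALDH+ values, and the ALDH term was -0.25 ± 0.17 (SE, limma adjusted p = 0.334). HSPB8, which works with BAG3, differed by -0.62 and -0.12 and did not pass (limma adjusted p = 0.377).

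Of the 5 chaperonin genes measured, 3 were lower in ALDH+ cells by small amounts. HSPE1, the lid of the mitochondrial chaperonin, was at 12.36 and 12.46 against 12.95 and 12.90, without overlap. Its term was -0.52 ± 0.10 (SE, limma adjusted p = 0.00362), 1.43-fold lower. HSPD1, the barrel of the same chaperonin, whose gene lies head to head with HSPE1, was at 13.57 and 13.25 in ALDH+ cells and at 13.56 and 13.55 in ALDH- cells. The ALDH+ DOX array alone was low on this bright probe set, and the term was -0.15 ± 0.08 (SE, limma adjusted p = 0.207). The next brightest HSPD1 probe set differed by -0.08 and -0.12. A dimmer HSPD1 probe set differed by -1.08 and -1.27, and another, under 6 in the ALDH+ DOX array, by -0.51 and -2.21. The last was under 6 in all arrays. CCT2, a subunit of the cytosolic CCT complex, was at 12.72 and 12.66 in ALDH+ cells and at 13.11 and 13.09 in ALDH- cells, a term of -0.41 ± 0.09 (SE, limma adjusted p = 0.00625). CCT5, another subunit, was at 13.51 and 13.34 against 13.75 and 13.74, a term of -0.32 ± 0.07 (SE, limma adjusted p = 0.00517). Neither subunit overlapped between fractions. The brightest CCT4 probe set did not overlap either, but it stood between 12.96 and 13.00 in all arrays and did not pass (limma adjusted p = 0.876). A second CCT4 probe set differed by 0.42 in the controls and by -0.20 with DOX. A dimmer CCT5 probe set differed by -1.62 and -1.24.

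HSF1, the factor that drives the heat shock response, was at 8.29 and 8.37 in ALDH+ cells and at 8.13 and 8.09 in ALDH- cells, and its term of 0.22 ± 0.27 (SE) did not pass (limma adjusted p = 0.601). SERPINH1, the collagen chaperone, which sits in the endoplasmic reticulum, had a term of 0.33 ± 0.21 (SE) and did not pass either (limma adjusted p = 0.28). A promoter window was at hand for 33 of the measured genes. HSPA14 and CRYAB, which were lower, and FKBP4 and HSF1, which did not pass, had none and are left out here. Of all genes, not split by promoter, 9.58% were lower. Set by promoter, 3 of 7 measured genes with a 3-unit match were lower, with a median term of -0.39. Of genes with a 2-unit match alone, 2 of 10 were lower, with a median of -0.32. Of those with neither, 5 of 16 were lower and 1 higher, with a median of -0.24, and HSPH1 was among these 16. These counts are descriptions, and no difference between the promoter classes was tested.

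The probe sets of a gene often differed in size. Of 78 probe sets of the listed genes at the level of 6, 49 were below 0 in both ALDH pairs (62.8%, against 35.1% of all probe sets at that level). Among these, 10 probe sets of 8 genes (BAG1, CCT5, DNAJA1, FKBP4, HSPA14, HSPA4, HSPD1 and HSPH1) were 2-fold or more lower in both pairs (12.8%, against 2.75%), and 0 were 2-fold higher in both, against 3.98%. The FKBP4 probe sets among them were under 6 in ALDH+ cells. The 12 genes that were lower had 14 further probe sets at that level, of which 13 were below 0 in both pairs, and the exception belongs to HSPA14. In 24 genes with at least 2 probe sets, all probe sets lay on the same side of 0 for 66.7% of genes in the controls (all genes 65.1%) and for 58.3% with DOX (all genes 59.6%). The dimmest probe set gave a larger difference than the brightest in 79.2% of the 24 genes in the controls (all genes 58.2%) and in 66.7% with DOX (all genes 59.0%). All 4 arrays reached a highest level of 14.2. The brightest probe sets of HSPD1, CCT5, HSP90AA1, HSP90AB1, CCT4 and HSPA9 were within 1.5 log2 units of it in every array. Whether bright probe sets were compressed was not tested.

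**Figure D3:**
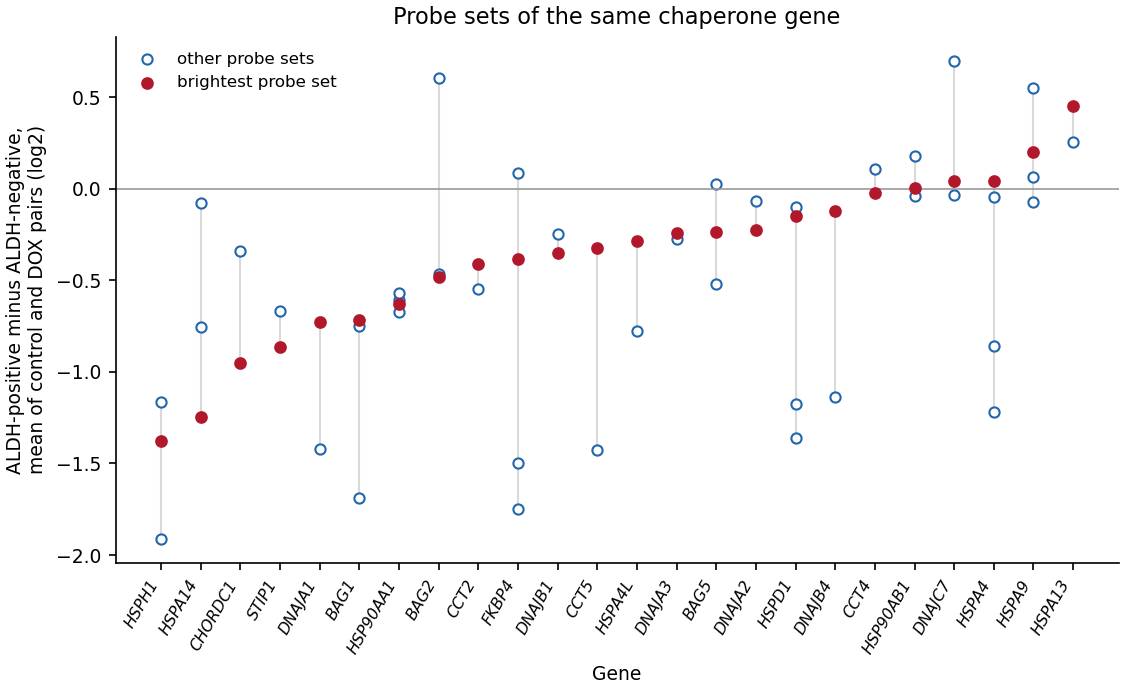
Difference between ALDH+ and ALDH- cells in log2 units (vertical axis, mean of the control and DOX pairs) for each probe set of the 24 chaperone genes with at least 2 probe sets at the level of 6. Filled points are the brightest probe set of a gene and open points the others. Open points reach further below 0 than the filled point for BAG1, CCT5, DNAJA1, DNAJB4, FKBP4, HSPA4, HSPA4L, HSPD1 and HSPH1, among others.

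No chaperone gene passed the test for DOX, given to induce miR-100. In the additive model none of the 37 genes passed the DOX term (limma, adjusted p under 0.05), where 0% of all genes were lower and 0.00809% higher. Without adjustment, 1 of 37 had a p under 0.05, where 5.27% of all genes did. That gene was HSPB1, with a DOX term of 0.45 ± 0.17 (SE, limma adjusted p = 0.855). In ALDH+ cells the differences between DOX and control ran from -0.999 to 0.90 with a median of 0.06, where that of all genes was 0.12. None of the 36 genes measured there (HSPA2 was under 6 in both arrays) was called 2-fold lower, against 2.3% of all genes, or 2-fold higher, against 3.47%. Within 0.5 log2 units lay 30 of 36 genes and 71.9% of all genes. In ALDH- cells all 37 genes lay within 0.5, between -0.32 and 0.36, as did 97.3% of all genes. None was called there, against 0.0508% of all genes lower and 0.271% higher.

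**Figure D4:**
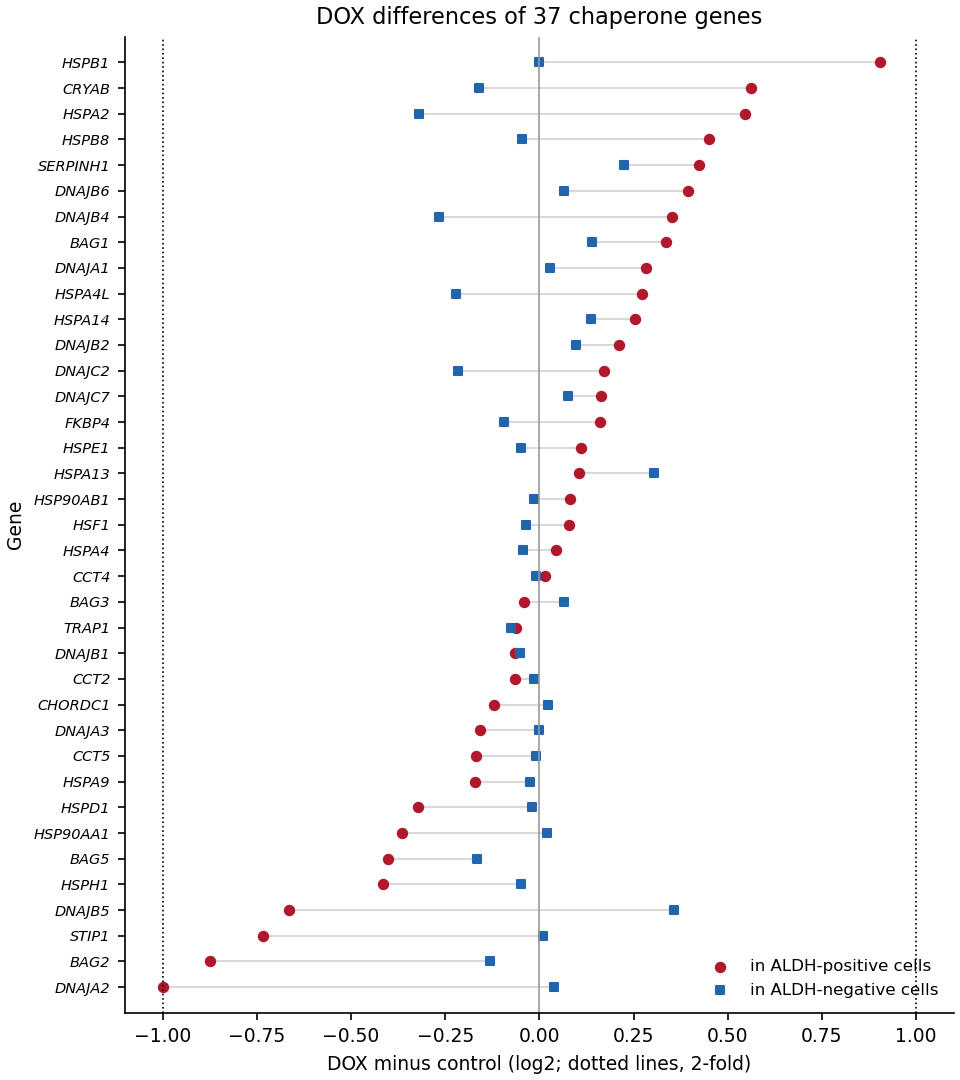
Difference between DOX and control arrays in log2 units (horizontal axis) for each of 37 chaperone genes (vertical axis), in ALDH+ cells (circles) and in ALDH- cells (squares), ordered by the ALDH+ value, with dotted lines at 2-fold. The ALDH- values lie between -0.32 and 0.36 and the ALDH+ values between -0.999 and 0.90, with DNAJA2 at the lower and HSPB1 at the upper end.

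The size of the DOX difference was greater in ALDH+ than in ALDH- cells for 32 of 37 genes, a count that was not made over all genes. The median size was 0.25 log2 units in ALDH+ and 0.05 in ALDH- cells. That of all genes was 0.30 and 0.09, so the order was not particular to the listed genes. The DOX difference in ALDH+ cells uses the same ALDH+ control array as the ALDH difference in the controls. The ALDH+ DOX array was also the one with the low 18S ribosomal control probe sets, at 10.42 for the 5′ probe set where the other arrays had 12.02 to 12.36, and the part of this in the DOX difference was not tested. The 3 small heat shock proteins were all above 0 with DOX in ALDH+ cells, as were 7397 of all 12151 genes measured there. HSPB1 differed by 0.90, CRYAB by 0.56 and HSPB8 by 0.45. In ALDH- cells they stood at 0.00, -0.16 and -0.05.

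The DOX difference of ALDH+ cells minus that of ALDH- cells was 2-fold or more lower for 2 of 37 genes, against 2.4% of all genes, and higher for none, against 3.78%. DNAJA2, a cytosolic J-domain partner of HSP70, was at 11.35 in the ALDH+ control, 10.35 in the ALDH+ DOX array, 11.05 in the ALDH- control and 11.09 in the ALDH- DOX array. The ALDH+ DOX array was the low one, at -0.999 from its control, just under 2-fold, where ALDH- cells differed by 0.04. A second DNAJA2 probe set stayed between 10.42 and 10.51 in all arrays. DNAJB5, another J-domain protein, was at 6.60 and 5.94 in the ALDH+ control and DOX arrays and at 6.36 and 6.72 in the ALDH- arrays, all near the level of 6, and its second probe set was under 6 in all arrays. With 1 array a group there was no test of either.

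On other genes the ALDH+ DOX array was low for some probe sets only. BAG2, an inhibitor of the ubiquitin ligase that acts on HSP70 clients, was at 10.73 and 9.85 in ALDH+ cells and at 10.84 and 10.70 in ALDH- cells. A second BAG2 probe set differed by -1.19 with DOX in ALDH+ cells and the last by 0.37. A second probe set of DNAJB4 was at 7.68 in the ALDH+ control, 5.66 in the ALDH+ DOX array and 8.01 and 7.61 in ALDH- cells, where the brightest differed by 0.35 with DOX in ALDH+ cells. With every probe set read alone, 5 of 36 genes (HSPA9, HSPA4, DNAJB4, BAG2 and HSPD1) had 1 that was 2-fold lower with DOX in ALDH+ cells, against 9.43% of all genes. Those of HSPA9, DNAJB4 and HSPD1 were under 6 in the ALDH+ DOX array. All probe sets of a gene lay on the same side of 0 for 41.7% of the 24 genes in that comparison, against 51.8% of all genes.

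Other genes of the pathway went both ways. Of 57 measured cytosolic and mitochondrial chaperones outside the 46, 8 were lower in ALDH+ cells and 7 higher by the same limma test. Of all genes, 9.58% were lower and 13.5% higher. The median term of the 57 genes was -0.09. HSPA6, a strictly heat-inducible HSP70, was at 6.68 in the ALDH+ control, 4.79 in the ALDH+ DOX array and 8.51 and 8.69 in ALDH- cells. Its term was -2.86 ± 0.40 (SE, limma adjusted p = 0.000397), 7.27-fold lower, a size that is uncertain since the ALDH+ DOX array was under 6. A second HSPA6 probe set, at 6.41, 4.94, 7.92 and 8.0003 in the same order, went the same way. CCT6B, a testis-type CCT subunit, was higher in ALDH+ cells with a term of 1.46 ± 0.28 (SE, limma adjusted p = 0.00334). LONP1, a protease of the mitochondrial matrix, was higher too, with a term of 1.04 ± 0.27 (SE, limma adjusted p = 0.0164).

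Lists outside the pathway differed in their counts, to be read beside the 9.58% of all genes that were lower and the 13.5% that were higher. Of 23 measured chaperones of the endoplasmic reticulum, 1 was lower in ALDH+ cells (CRELD2, term -0.75 ± 0.17 (SE), limma adjusted p = 0.00832) and 0 higher, with a median of 0.04. Of 27 proteasome genes, 11 were lower and 0 higher, with a median of -0.31. PSMD1, PSMD12 and PSMD6, subunits of the regulatory particle, had terms of -0.85, -0.82 and -0.69. Of 25 measured genes of the ATF4 response to amino acid and folding stress, 19 were higher in ALDH+ cells and 1 lower, with a median of 1.41. Nothing particular to the 46 genes was tested against these lists.

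**Figure D5:**
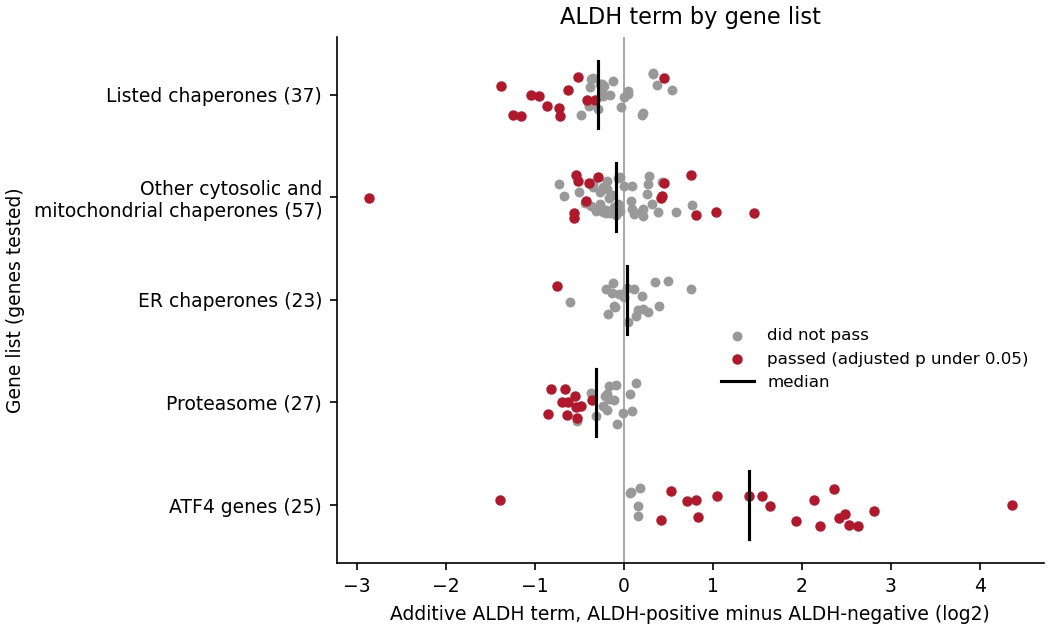
Additive ALDH term in log2 units (horizontal axis, ALDH+ minus ALDH-) for each measured gene of 5 lists (vertical axis, number of genes tested in brackets), with genes that passed in red and a bar at the median. The medians are -0.28 for the listed chaperones, -0.09 for other cytosolic and mitochondrial chaperones, 0.04 for the endoplasmic reticulum, -0.31 for the proteasome and 1.41 for ATF4 genes.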

How the data were processed

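The values are log2 probe set levels that the authors deposited as 1 table for the 4 arrays. They were made with RMA, which corrects background, normalises quantiles and summarises probes, per the submitters' processing notes. No version of RMA is given in the sources used here. Quantile normalisation makes levels relative within an array. No further scaling was applied. Gene names came from GEO's platform annotation of 2016: 41091 probe sets had 1 gene, 1801 had several, 11721 had none and 62 were controls. The brightest of the probe sets annotated to a gene alone, by its mean over the arrays, stood for it, which left 19775 genes, 12365 of them at the log2 level of 6 in at least 1 array.

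Differences between arrays were called at 2-fold with a level of 6 in either array and carry no p-value. The additive model (limma 3.58.1, lmFit and eBayes with trend, R 4.3.3) had 1 residual degree of freedom, a prior of 11.6 and a median residual SD of 0.15 log2 units. A DOX response that differs between fractions enters its error. Tests were two-sided, with Benjamini-Hochberg adjustment across all 12365 genes. Values in all arrays are given for genes that passed a term or were called by size and for the gene nearest the threshold, and other genes are given by their differences. BAG2, DNAJB1, DNAJB4, HSP90AB1, HSPB1, HSPD1 and HSF1 were also given in full, chosen after their values were seen. Members and lists were chosen with earlier results of these data known. Alternatives changed scaling, the filter, the choice of probe sets, the size called, the variance moderation, the model and the arrays used, and the count over genes at 6 in both fractions was added after seeing the data.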

Additional observations from a re-analysis of the deposited data

Results flagged for a closer look

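The DOX differences of the fractions were apart by 2-fold or more and of opposite sign for 2 J-domain genes, which called them for a closer look. For DNAJA2 the DOX difference of ALDH+ cells minus that of ALDH- cells was -1.04, from -0.999 and 0.04. For DNAJB5 it was -1.02, from -0.66 and 0.36. By size alone, whatever the signs, 2 of 37 genes were called and 6.19% of all genes. The ALDH- difference of DNAJA2 was close to 0, and its second probe set stayed between 10.42 and 10.51 in all arrays. DNAJB5 was near the level of 6 in all arrays. Each fraction had 1 array with and 1 without DOX, and neither difference was tested.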

How the results depend on the processing

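No further pairing was possible because each group had 1 array, and the additive fit already compares the fractions within each treatment. Of 177 values of named genes under the alternatives, 134 kept their direction and side of the threshold, 43 lost the call and 0 reversed. HSPH1 passed in all 14 settings tried (limma adjusted p up to 0.0192) and HSP90AA1 in 13 of 14. The 12 genes lower by the ALDH term became 7 with no filter on level and 4 without the variance trend, and 2 to 21 with an array left out, while the share of all genes went from 9.58% to 2.07%, 4.28% and 1.42% to 25.1%. They numbered 11 when only genes at 6 in both fractions were counted. The 1 gene higher, HSPA13, became 0 with no filter, with the mean of probe sets, with every probe set alone, without the trend and with a single term, and 0 to 6 with an array left out. The share of all genes higher went from 13.5% to between 3.88% and 9.81% in the former and to between 3.13% and 35.1% in the latter. The 4 genes called by size in the control pair became 7 without probe sets of the shared type, 11 with every probe set alone and 10 at 1.5-fold, where all genes called either way went from 10.5% to 11.8%, 16.3% and 26.1%. The 4 in the DOX pair became 1 with the mean of probe sets, 13 with every probe set alone and 13 at 1.5-fold (all genes from 16.7% to 13.8%, 28.2% and 35.5%), and their median became -0.49 without shared probe sets. The 0 called with DOX in ALDH+ cells became 1 with centred arrays, 1 with cyclic loess, 5 with every probe set alone and 5 at 1.5-fold (all genes from 5.78% to 5.7%, 5.56%, 15% and 21.5%). The 2 called between the DOX differences became 1 at a level of 7, 1 with levels under 6 set to 6, 0 with the mean of probe sets, 8 with every probe set alone and 8 at 1.5-fold (all genes from 6.19% to 5.88%, 5.12%, 4.48%, 16.1% and 22.3%). The DOX term gave 0 genes in every setting. Levels near 6 are close to background, which limits HSPA2, DNAJB5 and the dim FKBP4 probe sets.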
